A study of Bos taurus with 16 samples.

Results

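The complement genes described here are C1QA, C1QB, C1QC, C1R, C1S, C2, C3, CFB, C5AR1 and C3AR1, chosen as every array probe that is not a control and carries 1 of these gene names. They are 10 of 16068 genes named on the array and 32 of its 43653 probes, and 28 of the 32 probes were tested. RNA came from the endometrium, which lines the uterus, of 4 fertile cows (Bos taurus) at nominal days 10, 30, 50 and 100 after parturition; true days were 9 or 10, 29 or 30, 49 or 51, and 99 or 100. Pieces were taken from the uterine horns with biopsy forceps, each cow was sampled at all 4 times, and 1 array per cow and time gave 16 arrays of 1 colour. The animals' ages are not given in the sources used here, all cows are fertile animals after calving with no cow outside this period for comparison, and each cow's 4 arrays share a slide, so cow and slide cannot be told apart. On every slide the days 10, 30, 50 and 100 took array positions 1, 2, 3 and 4, so time and array position cannot be told apart either, in any comparison between days.

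Complement is a cascade of plasma and tissue proteins that marks microbes and dying cells for removal. In the classical pathway the recognition molecule C1q, built of A, B and C chains, binds its target and activates the proteases C1r and C1s. C1s cleaves C4 and C2 into an enzyme that activates C3. In the alternative pathway factor B takes the place of C2. The fragments C3a and C5a attract and activate leukocytes through the receptors C3aR1 and C5aR1. In most tissues macrophages are the main source of C1q, while C1r, C1s, C3 and factor B are also made by fibroblasts and epithelial cells, and the endometrium is invaded by leukocytes while it repairs itself after calving.

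The array reads each gene through strands of 60 bases. Of the 32 probes, 1 each of 5 genes is shown, and together they represent the recognition chains, the proteases and C3. Each has an open reading frame in the sense direction throughout, as have 25 of the 32. None of those shown is the brightest probe of its gene, which gave the levels below. In C3 the capitals mark the codons of the thioester site, through which activated C3 binds covalently to a surface. The C3 probe was chosen for this site, and the others from the tested probes that are not the brightest.
C1QA, position 570 of its transcript: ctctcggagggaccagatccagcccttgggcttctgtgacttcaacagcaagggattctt
C1R, position 1944: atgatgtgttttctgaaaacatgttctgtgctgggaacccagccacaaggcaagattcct
C2, position 1919: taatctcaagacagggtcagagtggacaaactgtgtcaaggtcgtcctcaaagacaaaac
C3, position 3058: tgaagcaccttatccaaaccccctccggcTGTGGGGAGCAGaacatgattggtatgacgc
CFB, position 1464: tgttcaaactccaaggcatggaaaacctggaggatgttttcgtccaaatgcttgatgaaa
On build HGSC Btau_3.1 these probes are listed at chr2:134673069-134673128 on the minus strand (C1QA), chr5:10364981-10365040 on the plus strand (C1R), chr23:27214582-27214816 on the minus strand (C2), chr7:16339890-16339949 on the plus strand (C3) and chr23:27209294-27209815 on the minus strand (CFB). The listed C2 and CFB intervals span 235 and 522 bases, more than the 60 bases of the probes. The letters TGTGGGGAGCAG, searched on both strands, occur in 1 of the 43653 probes, or 0.00229%, and that probe is the C3 probe shown.

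Each level below is the log2 processed intensity of a gene's brightest tested probe relative to the percentile 75 of its array, so a difference of 1 is a doubling and levels of different genes are not compared. Between 61.2% and 77.0% of spots were well above background, no spot was saturated, and precision is limited by the 16 arrays. Differences are later minus earlier within cows, with standard errors (SE) and adjusted p-values from limma with terms for time and cow, and a gene is called at an adjusted p under 0.05 over 33182 tested probes. Of 12 epithelial markers 11 were tested, and each was well above background on some array of every day. The same held for all 10 smooth muscle markers, and testing itself required a signal well above background on 4 arrays. These detections therefore do not identify the tissue. The biopsies differed in make-up. As mean log2 deviations from the 16-array mean, day 100 epithelial markers were at -3.56 in cow 2 and 2.67 in cow 1, while smooth muscle markers were at 2.19 in cow 2 and -3.74 in cow 1. In bulk tissue, fewer cells of a type and less RNA per cell cannot be told apart.

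The 3 C1q chains and the receptors C5AR1 and C3AR1 fell by day 100 relative to day 10. C3AR1, the C3a receptor, was also lower at days 30 and 50. For C5AR1 the day 100 call was lost with another background correction, normexp, which gave a difference of -0.30 (adjusted p = 0.590). It was also lost when any 1 cow was left out. At day 30 1 of the 10 genes was called lower, against 0.407% of all tested probes. At day 50 1 was called lower, against 1.06%, and at day 100 5 were called lower, against 3.14%. None was called higher, against 0.0121%, 0.597% and 1.47% of probes. All 10 log2 differences from day 10 were negative at each later time, with medians of -2.13, -1.77 and -2.04 at days 30, 50 and 100, against -0.0056, -0.032 and -0.070 over all tested probes. The F test over all 4 times called 1 of the 10, C3AR1 (adjusted p = 0.0300), against 1.03% of probes. The 3 comparisons with day 10 share the day 10 arrays, so the later times are not independent of each other.

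**Figure D1:**
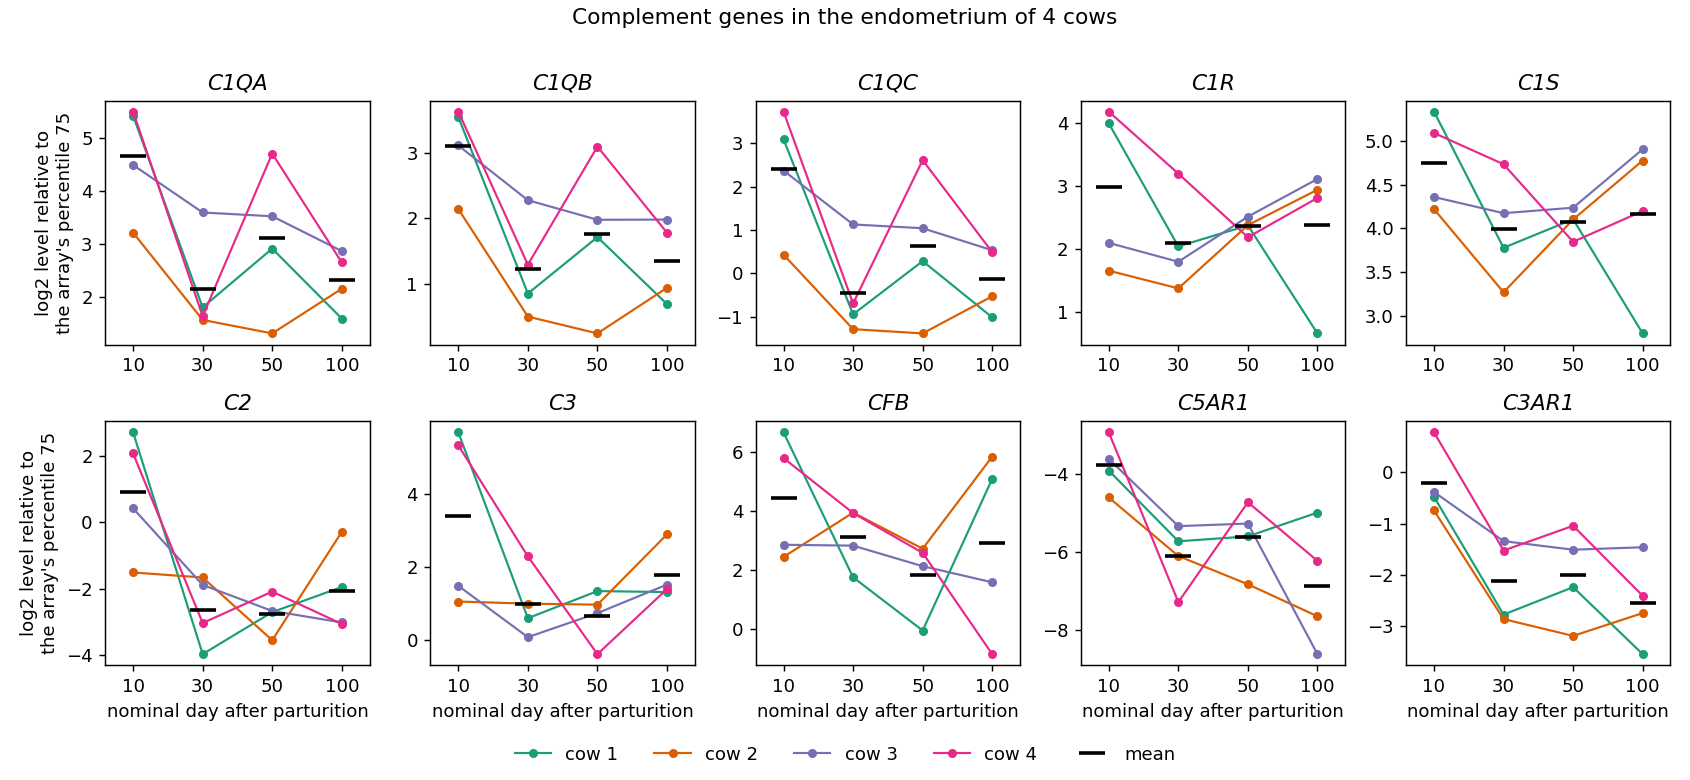
Level of each complement gene (log2 relative to the percentile 75 of its array, vertical axis) at nominal days 10, 30, 50 and 100 (horizontal axis, evenly spaced), with 1 coloured line per cow and a black bar for the mean of 4 cows. The C1q chains, C5AR1 and C3AR1 are highest at day 10 in every cow, and at day 10 cows 1 and 4 lie above cows 2 and 3 for all genes shown except C5AR1 and C3AR1.

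C1q recognises the targets of the classical pathway, and its chains are encoded by C1QA, C1QB and C1QC. C1QA stood at 5.42, 3.21, 4.49 and 5.50 in cows 1 to 4 at day 10, at 1.80, 1.56, 3.59 and 1.63 at day 30, at 2.91, 1.31, 3.52 and 4.70 at day 50, and at 1.59, 2.15, 2.86 and 2.65 at day 100. Each cow had its highest C1QA level at day 10, and all 4 day 100 values lay below all 4 day 10 values, whereas the day 30 and day 50 values overlapped with day 10 because cow 2 was low throughout and cows 3 and 4 were high at some later times. C1QA averaged 2.31 ± 0.57 at day 100 and 4.65 ± 1.07 at day 10 (SD, n = 4 each) and fell by 2.34 ± 0.56 (SE, adjusted p = 0.0401), or 5.07-fold, in 4 of 4 cows. The differences at days 30 and 50 were -2.51 and -1.54 (SE 0.56, adjusted p = 0.0801 and 0.172), also negative in 4 of 4 cows.

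C1QB, which encodes the B chain, stood at 3.54, 2.14, 3.11 and 3.62 in cows 1 to 4 at day 10, at 0.85, 0.50, 2.27 and 1.29 at day 30, at 1.71, 0.24, 1.97 and 3.09 at day 50, and at 0.69, 0.94, 1.98 and 1.78 at day 100. The day 100 values again lay below every day 10 value, and cow 4 at day 50 was the later sample closest to its day 10 level. C1QB averaged 1.35 ± 0.63 at day 100 and 3.103 ± 0.681 at day 10 (SD, n = 4 each) and fell by 1.76 ± 0.38 (SE, adjusted p = 0.0298), or 3.38-fold, in 4 of 4 cows. At days 30 and 50 the differences were -1.87 and -1.35 (SE 0.38, adjusted p = 0.0609 and 0.0953), negative in 4 of 4 cows.

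C1QC, which encodes the C chain, stood at 3.09, 0.43, 2.37 and 3.73 in cows 1 to 4 at day 10, at -0.94, -1.28, 1.13 and -0.69 at day 30, at 0.28, -1.38, 1.04 and 2.61 at day 50, and at -1.01, -0.53, 0.53 and 0.49 at day 100. Each cow was lower at every later time than at day 10, but the groups overlapped, since the day 10 value of cow 2 was below the day 100 values of cows 3 and 4. C1QC averaged -0.13 ± 0.77 at day 100 and 2.40 ± 1.43 at day 10 (SD, n = 4 each) and fell by 2.53 ± 0.59 (SE, adjusted p = 0.0377), or 5.78-fold. At days 30 and 50 the differences were -2.85 and -1.77 (SE 0.59, adjusted p = 0.0665 and 0.145).

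The day 100 calls of the C1q chains depended on which animals and arrays were included. All 3 were lost without cow 1, cow 3 or cow 4, with adjusted p of 0.0926 to 0.179, and all 3 without the day 10 array of cow 1 or cow 4 or the day 100 array of cow 1, cow 3 or cow 4, with adjusted p of 0.0585 to 0.121. The C1QA and C1QC calls were also lost without the day 10 array of cow 3, the day 30 array of cow 1 or the day 50 array of cow 1 or cow 3, and the C1QA and C1QB calls without the day 10 array of cow 2, with adjusted p of 0.0507 to 0.0605. Without single arrays the difference stayed between -2.71 and -1.95 for C1QA, between -1.98 and -1.49 for C1QB and between -2.94 and -2.11 for C1QC. Leaving out the day 30 or day 50 array of cow 1 left the C1QA and C1QC differences at -2.34 and -2.53. The loss of calls was not particular to these genes. Over all tested probes 1529 were called at day 100, against 73, 82 and 213 without cows 1, 3 and 4 and 1582 without cow 2.

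C1R and C1S encode the proteases that bind C1q, of which C1s cleaves C4 and C2. No difference of either gene was called at any time. C1R stood at 4.00, 1.66, 2.10 and 4.18 in cows 1 to 4 at day 10, at 2.05, 1.38, 1.80 and 3.20 at day 30, at 2.38, 2.38, 2.52 and 2.19 at day 50, and at 0.67, 2.94, 3.11 and 2.81 at day 100. C1R was high at day 10 in cows 1 and 4, and at day 100 it was below its day 10 level in these cows and above it in cows 2 and 3. Its differences from day 10 were -0.88, -0.62 and -0.60 at days 30, 50 and 100 (SE 0.63, adjusted p = 0.552, 0.644 and 0.569). The day 100 difference was positive, at 0.31, without cow 1, and at 0.079 without the day 100 array of cow 1.

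C1S stood at 5.34, 4.22, 4.36 and 5.09 in cows 1 to 4 at day 10, at 3.78, 3.27, 4.17 and 4.73 at day 30, at 4.10, 4.10, 4.24 and 3.85 at day 50, and at 2.80, 4.78, 4.90 and 4.20 at day 100. The pattern was that of C1R, with the lowest value of all 16 in cow 1 at day 100 and values above day 10 in cows 2 and 3 at day 100. The differences were -0.76, -0.68 and -0.58 at days 30, 50 and 100 (SE 0.46, adjusted p = 0.474, 0.459 and 0.440), and without cow 1 the day 100 difference was 0.070. At day 50 the 4 cows averaged 4.07 ± 0.16 for C1S and 2.37 ± 0.13 for C1R (SD, n = 4), the smallest spread of either gene at any time.

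C2 is the protease zymogen that joins C4b to form the classical C3 convertase. It stood at 2.70, -1.51, 0.42 and 2.07 in cows 1 to 4 at day 10, at -3.96, -1.66, -1.88 and -3.03 at day 30, at -2.70, -3.54, -2.66 and -2.08 at day 50, and at -1.95, -0.29, -3.01 and -3.05 at day 100. All values at days 30 and 50 lay below all day 10 values, and at day 100 cow 2 was above its own day 10 level while the other cows were below theirs. The differences were -3.55, -3.67 and -2.99 at days 30, 50 and 100 (SE 0.95, adjusted p = 0.135, 0.0758 and 0.0845), with negative signs in 4, 4 and 3 of 4 cows, and none was called. Leaving out cow 2 gave an adjusted p of 0.0212 at day 100, and leaving out the day 10 or day 100 array of cow 2 gave 0.0324 and 0.0295 at day 100 and 0.0318 and 0.0435 at day 50.

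C3, on which all activation pathways converge, differed most between cows at day 10. It stood at 5.69, 1.06, 1.49 and 5.33 in cows 1 to 4 at day 10, at 0.60, 1.00, 0.08 and 2.29 at day 30, at 1.34, 0.97, 0.74 and -0.38 at day 50, and at 1.32, 2.90, 1.52 and 1.40 at day 100. The high day 10 values were those of cows 1 and 4, and the groups overlapped at every time. These cows also had the highest day 10 values of the C1q chains, C1R, C1S, C2 and CFB. C3 averaged 0.99 ± 0.94 at day 30, 0.67 ± 0.74 at day 50 and 1.78 ± 0.75 at day 100, against 3.39 ± 2.46 at day 10 (SD, n = 4 each). The differences of -2.40, -2.72 and -1.61 (SE 0.94, adjusted p = 0.293, 0.157 and 0.303) were not called, and at day 100 C3 was lower than at day 10 in 2 of 4 cows.

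CFB encodes factor B, the protease of the alternative pathway's C3 convertase. It stood at 6.65, 2.44, 2.85 and 5.78 in cows 1 to 4 at day 10, at 1.75, 3.93, 2.82 and 3.92 at day 30, at -0.05, 2.71, 2.12 and 2.57 at day 50, and at 5.08, 5.83, 1.58 and -0.85 at day 100. At day 100 cows 1 and 2 were high and cow 4 had the lowest value of all 16 arrays. The differences were -1.32, -2.59 and -1.52 at days 30, 50 and 100 (SE 1.43, adjusted p = 0.699, 0.363 and 0.525), each negative in 3 of 4 cows. The SE was the largest among the 10 genes. The day 100 difference was 0.18 without cow 4 and 0.056 without its day 100 array, and the day 30 difference was 0.12 with the epithelial and smooth muscle levels as covariates.

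C3AR1, the receptor for C3a, was the member called at all 3 later times. It stood at -0.48, -0.75, -0.39 and 0.77 in cows 1 to 4 at day 10, at -2.77, -2.86, -1.34 and -1.52 at day 30, at -2.24, -3.18, -1.51 and -1.04 at day 50, and at -3.54, -2.74, -1.46 and -2.40 at day 100. Every later value lay below every day 10 value. C3AR1 averaged -2.12 ± 0.80 at day 30, -1.99 ± 0.93 at day 50 and -2.54 ± 0.86 at day 100, against -0.21 ± 0.67 at day 10 (SD, n = 4 each). It fell by 1.91, 1.78 and 2.33 (SE 0.34, adjusted p = 0.0425, 0.0339 and 0.00845), or 3.77-fold, 3.44-fold and 5.02-fold, in 4 of 4 cows each time.

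The day 100 call of C3AR1 was kept without any single array, with adjusted p of at most 0.0408, and was lost when cow 1 (adjusted p = 0.0757) or cow 4 (0.0651) was left out. The day 30 and day 50 calls were lost without any 1 of the 4 cows, with adjusted p of 0.0712 to 0.344 at day 30 and 0.104 to 0.172 at day 50. They were also lost without the day 10 array of cow 1, 2 or 4. The day 30 call was further lost without the day 30 array of any cow or the day 50 array of cow 1, 3 or 4, and the day 50 call without the day 50 array of any cow, with adjusted p from 0.0554 to 0.194 over all these arrays. Over all tested probes, leaving out 1 cow cut the number called at day 30 from 139 to between 14 and 46. At day 50 the number fell from 551 to between 21 and 149.

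C5AR1, the receptor for C5a, was close to background. It stood at -3.92, -4.61, -3.62 and -2.94 in cows 1 to 4 at day 10, at -5.72, -6.10, -5.34 and -7.28 at day 30, at -5.60, -6.82, -5.27 and -4.73 at day 50, and at -4.99, -7.64, -8.60 and -6.22 at day 100. All later values lay below all day 10 values, and the probe was well above background on 4 arrays at day 10, 2 at day 30, 3 at day 50 and 2 at day 100. C5AR1 fell by 3.09 ± 0.68 at day 100 (SE, adjusted p = 0.0309), and the differences at days 30 and 50 were -2.34 and -1.83 (SE 0.68, adjusted p = 0.160 and 0.180). Since later values rest in part on dim signals, their size depended on the background correction. With normexp the differences were -0.70, -0.71 and -0.30 at days 30, 50 and 100 and none was called (adjusted p = 0.521, 0.389 and 0.590). The day 100 call was also lost without any 1 cow, without the day 10 array of any cow and without the day 100 array of cow 3 or cow 4, with adjusted p of 0.0529 to 0.162.

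**Figure D2:**
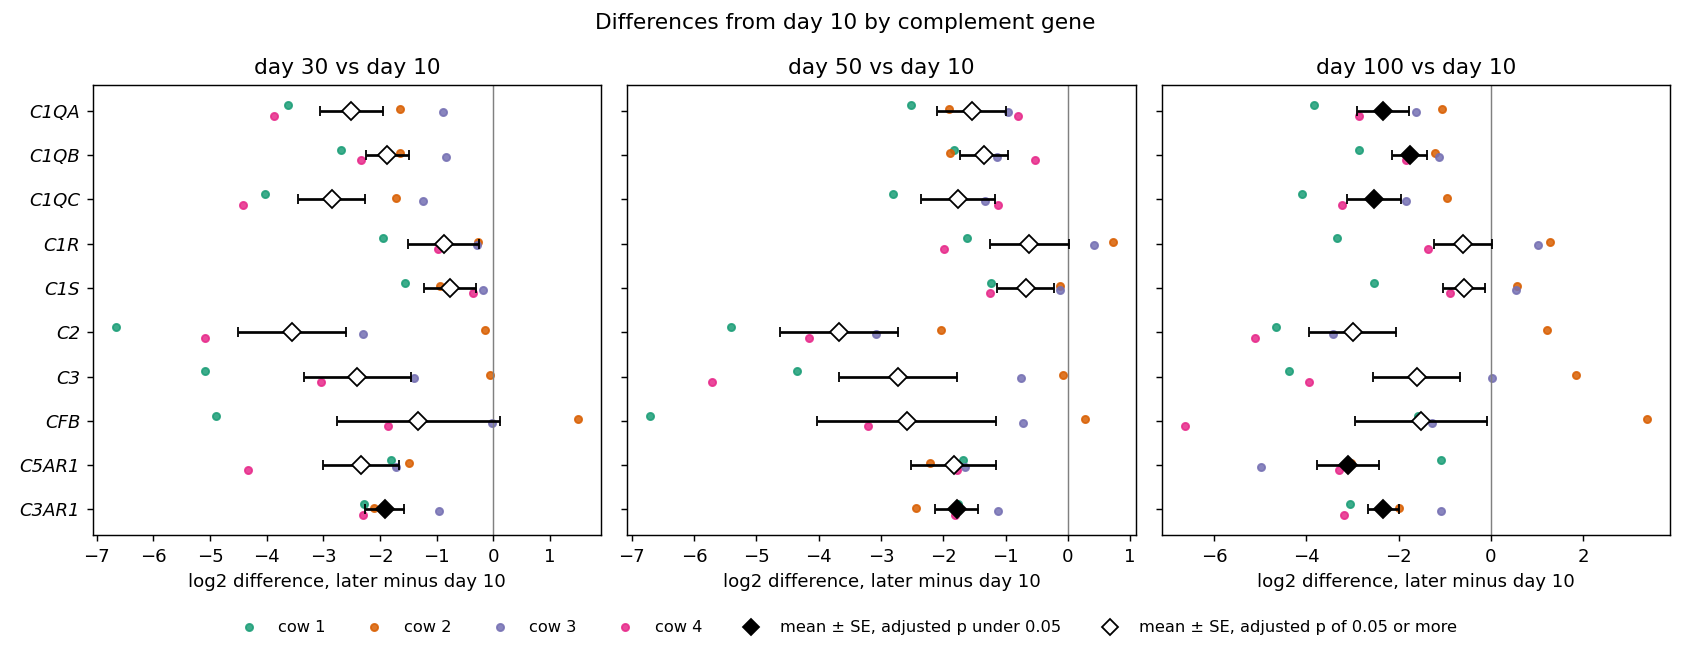
Log2 difference from day 10 for each complement gene (rows) at days 30, 50 and 100 (panels), with a coloured point per cow, a diamond for the mean and bars for its SE; filled diamonds have a limma adjusted p under 0.05. At day 100 the filled diamonds are C1QA, C1QB, C1QC, C5AR1 and C3AR1, while the cows' points of CFB, C3, C2, C1R and C1S lie on both sides of 0.

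Values at the later time lay below all day 10 values for C2, C5AR1 and C3AR1 at days 30 and 50, which is 3 of 10 against 4.89% and 8.17% of the probes with a value on all arrays. At day 100 this held for C1QA, C1QB, C5AR1 and C3AR1, 4 of 10 against 6.46%. Values were lower in 4 of 4 cows for 9, 8 and 5 of the 10 genes at days 30, 50 and 100, against 12.9%, 19.1% and 16% of probes.

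Between the later times no member was called, and none had an unadjusted p under 0.05. Over all 33182 probes limma called 0 between days 50 and 30, 100 and 30, or 100 and 50, with 9.32%, 12.8% and 3.14% at an unadjusted p under 0.05. The lowest unadjusted p among the members was that of C5AR1 between days 100 and 50, with a difference of -1.26 ± 0.68 (SE, unadjusted p = 0.0891, adjusted p = 0.912). C1QC differed by 1.09 ± 0.59 between days 50 and 30 (SE, unadjusted p = 0.0923, adjusted p = 0.579), with a higher day 50 value in cows 1 and 4 and a lower one in cows 2 and 3.

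The C1q chains were set against the components that fibroblasts and epithelial cells also make, as the mean deviation of the chains from their 16-array means minus that of the other genes. This contrast has no test, since the genes are not replicates. Against C1R and C1S, the C1q chains differed from day 10 by a further -1.59 ± 0.94 at day 30, -0.90 ± 1.25 at day 50 and -1.62 ± 0.72 at day 100 (SD over 4 cows). The value was negative in all 4 cows at days 30 and 100 and in 3 of 4 at day 50. The C1q chains themselves averaged -2.41 ± 1.28, -1.55 ± 0.71 and -2.21 ± 1.13 relative to day 10, and C1R with C1S -0.82 ± 0.65, -0.65 ± 1.01 and -0.59 ± 1.82.

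Against C3 and CFB the contrast had no common direction. It was -0.55 ± 1.65 at day 30, 1.104 ± 2.73 at day 50 and -0.65 ± 2.59 at day 100 (SD over 4 cows), within the spread between cows each time, and it was negative in 3, 2 and 3 of 4 cows. C3 with CFB averaged -1.86 ± 2.46, -2.66 ± 2.75 and -1.56 ± 3.37 relative to day 10. Over the 4 cows the day 100 contrast ran from -3.69 to 2.64.

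**Figure D3:**
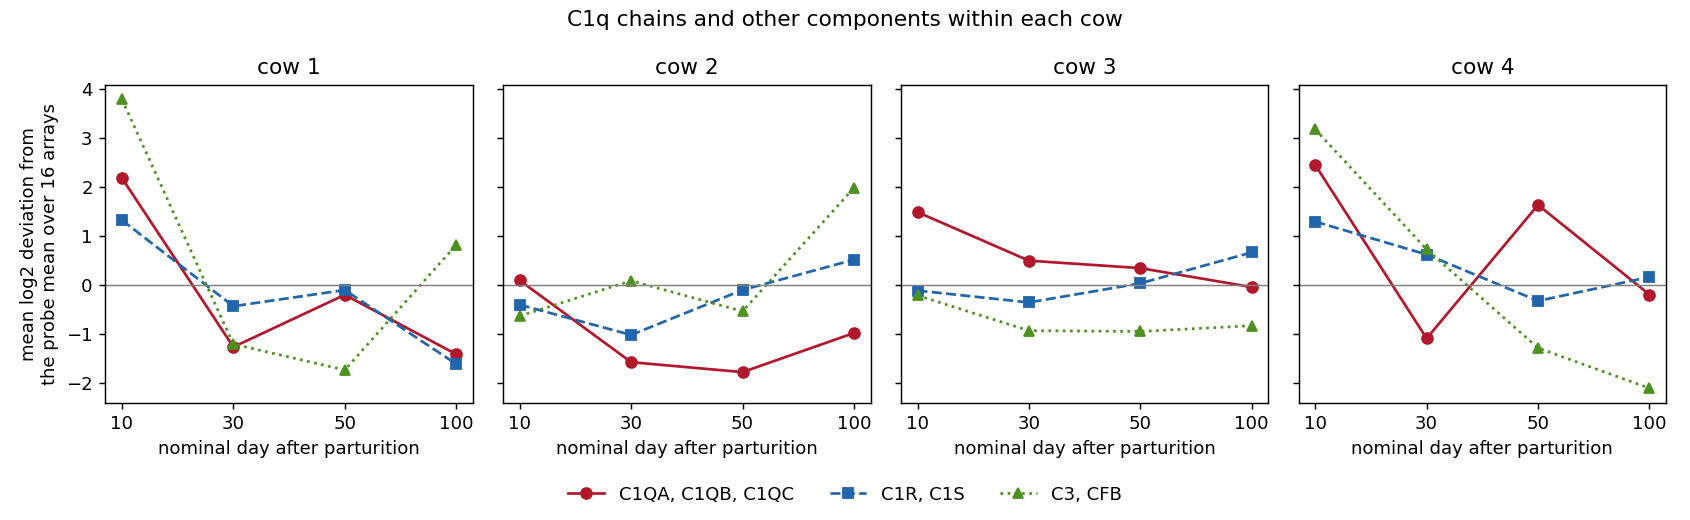
Mean log2 deviation from the probe means over 16 arrays (vertical axis) of the C1q chains, of C1R with C1S and of C3 with CFB, at nominal days 10, 30, 50 and 100 (horizontal axis, evenly spaced) in each of the 4 cows (panels). The C1q line starts at its highest point in every cow, while C3 with CFB starts at 3.78 and 3.17 in cows 1 and 4 and at -0.64 and -0.22 in cows 2 and 3.

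The C1q chains varied together over the 16 arrays. These arrays come from 4 cows and share slides, so correlations are descriptions. Pearson's r was 0.98 to 0.99 between the 3 chains and 0.88 to 0.92 between each chain and C3AR1. C1R and C1S correlated with r of 0.92, C2 with C3 with r of 0.79 and C3 with CFB with r of 0.65. Between the C1q chains and C3 r was 0.43 to 0.46, with C1R and C1S 0.50 to 0.57 and with CFB 0.16 to 0.23. The coefficients of C5AR1 with C1R and C1S were 0.02 and -0.01.

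**Figure D4:**
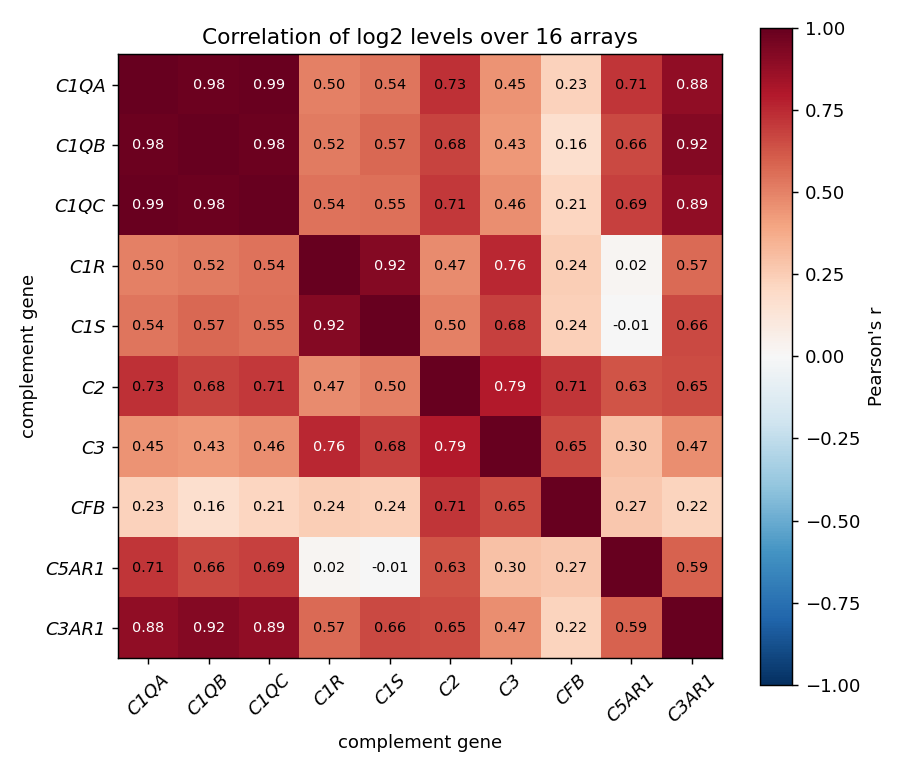
Pearson's r of log2 levels between each pair of complement genes over 16 arrays of 4 cows, from blue (-1) through white (0) to red (1). The C1q chains and C3AR1 form a block with r of at least 0.88, C1R and C1S pair at 0.92, and CFB has its highest values with C2 (0.71) and C3 (0.65).

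The genes closest in pattern were sought among 9942 other genes well above background on all 16 arrays. For C1QA they were TIMD4, a receptor for phosphatidylserine on dying cells, INPP5D, a lipid phosphatase of blood cells, and TNFAIP8L2, a regulator of immune signalling (r = 0.974, 0.964 and 0.962). For C1QB they were SIGLEC1, a sialic acid receptor of macrophages, INPP5D and the co-stimulatory protein CD86 (r = 0.968, 0.964 and 0.957). For C1QC they were INPP5D, PLA2G2D1, named as in the array design, and TIMD4 (r = 0.978, 0.971 and 0.967). Without the 2 arrays farthest from the median these 9 values lay between 0.932 and 0.971.

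C3, C1S and C5AR1 had other neighbours. The genes nearest to C3 were SOD2, the mitochondrial superoxide dismutase, NFKB1, a subunit of the transcription factor NF-kappa-B, and 20ALPHA-HSD, a steroid dehydrogenase (r = 0.932, 0.927 and 0.908). Without the 2 farthest arrays these values were 0.610, 0.798 and 0.591, so the likeness to C3 rested largely on those arrays. C1S was most like BICC1, an RNA-binding protein, the transforming growth factor receptor TGFBR2 and the transporter ABCA6 (r = 0.905, 0.884 and 0.882). Without the 2 arrays farthest from the C1S median these values were 0.870, 0.758 and 0.760. C5AR1 was most like BCL9L, a co-activator of Wnt signalling, BIN2, a membrane-shaping protein of leukocytes, and TNFRSF1B, a tumour necrosis factor receptor (r = 0.918, 0.904 and 0.897). For C5AR1 the values without the 2 farthest arrays were 0.850, 0.907 and 0.881.

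The levels of some cell type lists moved with these genes, and their part in the results was not tested. Epithelial and smooth muscle levels were the only ones used as covariates, in an alternative fit. The macrophage list, 14 of 15 markers tested with none dim on every array of a day, covered levels between 0.94 and 2.38 at day 10, between -1.22 and 0.26 at day 30, between -1.30 and 0.72 at day 50 and between -1.06 and -0.056 at day 100, so the later ranges lay below that of day 10. It correlated with the C1q chains with r of 0.94 to 0.96, with C3AR1 with r of 0.96, with C1R and C1S with r of 0.48 and 0.55, and with C3 and CFB with r of 0.49 and 0.27. Called lower were 7 of 14 markers at day 30, 8 at day 50 and 13 at day 100, against 0.407%, 1.06% and 3.14% of all tested probes. Among them, CSF1R, SPI1, CD68, FCGR1A, MSR1 and TYROBP were called at all 3 times, SIGLEC1 at days 30 and 100, TREM2 at days 50 and 100, and CD163, MRC1, AIF1 and FCER1G at day 100. MERTK, a receptor for the uptake of dying cells, differed by 0.23 ± 0.59 at day 100 (SE, adjusted p = 0.832).

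The neutrophil list was high at day 10 in the cows with high C3 and CFB. Of 12 markers 7 were tested, and the genes CSF3R, CXCR1, CXCR2, MMP8 and CATHL4 gave no tested probe. At day 10 these markers were at 4.12 in cow 1 and 3.33 in cow 4, against 0.56 in cow 2 and 0.043 in cow 3. Cows 1 and 4 were also the highest at day 10 for the C1q chains, C1R, C1S, C2, C3 and CFB. Later the level lay between -1.47 and -0.11 at day 30, between -1.23 and -0.64 at day 50 and between -1.60 and 1.85 at day 100, with the highest day 100 value in cow 1. Its r was 0.79 with C3, 0.76 with C2, 0.69 with CFB and 0.54 to 0.56 with the C1q chains. These values were not computed without the day 10 arrays of cows 1 and 4. At day 100 C3 and CFB were highest in cow 2, at 2.90 and 5.83, where the neutrophil level was -1.06. The calcium-binding protein S100A12 was called lower at day 50, with a difference of -5.14 ± 1.14 (SE, adjusted p = 0.0495).

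Stromal fibroblast markers, 10 of 11 tested, correlated most with C1S and C1R, at r of 0.76 and 0.69, but almost as much with C3AR1, at 0.67, and with the C1q chains, at 0.62 to 0.65. The list lay between 0.099 and 0.91 at day 10, -0.15 and 0.29 at day 30, -0.27 and 0.033 at day 50, and -1.48 and 0.37 at day 100. Its lowest value, -1.48, was that of cow 1 at day 100, the array with the lowest C1R and C1S. Of its markers PDGFRB, a growth factor receptor of perivascular cells and fibroblasts, was called lower at day 100, with a difference of -2.54 ± 0.50 (SE, adjusted p = 0.0223). Epithelial and smooth muscle lists had r between -0.32 and 0.28 and between -0.40 and 0.02 with the 10 genes, and no marker of either list was called.

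Among markers of other cells, BATF3, a transcription factor of dendritic cells, was called lower at all 3 later times, with differences of -2.001, -1.72 and -1.91 (SE 0.30, adjusted p = 0.0208, 0.0249 and 0.0108). BATF3 was the only called marker of the 4 tested for dendritic cells. At day 100 CD4 and NKG7 of T and NK cells fell by 0.81 and 2.08 (SE 0.20 and 0.39, adjusted p = 0.0479 and 0.0188). These were 2 of 10 tested T and NK cell markers, of which 7 had negative differences. The T cell marker CD3D was higher at day 100 than at day 10 in every cow. The erythroid genes HBB and SLC4A1 went opposite ways at day 100, HBB higher by 4.34 ± 1.08 (SE, adjusted p = 0.0464), and SLC4A1 with a difference of -2.0 ± 0.50 (SE, adjusted p = 0.0470). Each was above background on 1 array of its lower day. The dendritic cell list, of which 4 of 6 genes were tested, had r of 0.78 to 0.81 with the C1q chains. Its r was 0.77 with C2, 0.74 with C3 and 0.46 to 0.68 with the other members. The T and NK cell list had r of 0.66 to 0.72 with the C1q chains.

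Other genes of the pathway were taken from a list of 43, of which 38 are on the array and 30 were tested. They include the lectin pathway and C4, the remaining alternative and terminal components, the regulators and the other receptors. None of the 30 was called lower at day 30, 2 were at day 50 and 2 at day 100, against 0.407%, 1.06% and 3.14% of all tested probes. None was called higher, against 0.0121%, 0.597% and 1.47%. All calls fell among the 6 tested receptors. ITGB2, the shared beta chain of complement receptors 3 and 4, stood at 0.28, -0.28, 0.29 and 1.13 in cows 1 to 4 at day 50, against 2.61, 0.80, 1.68 and 2.41 at day 10. It fell by 1.52 ± 0.33 at day 50 (SE, adjusted p = 0.0485), with the day 50 value of cow 4 above the day 10 value of cow 2.

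ITGAM, the alpha chain of complement receptor 3, was dim. It was well above background on 2 arrays at day 10, 1 at day 30, 1 at day 50 and 0 at day 100. It fell by 2.00 ± 0.44 at day 50 (SE, adjusted p = 0.0484) and was also called lower at day 100 (adjusted p = 0.00985), in 4 of 4 cows. A ratio of 2.33-fold came from setting the day 10 mean against a day 100 limit. That limit is the higher of each array's lowest signal well above background and the probe's own signal. The day 10 mean includes arrays where the probe was not well above background, so the ratio is not a strict lower bound. VSIG4, a macrophage receptor for C3b, stood at -3.26, -1.91, -0.27 and -1.78 in cows 1 to 4 at day 100, against 0.14, 0.52, 0.58 and 0.60 at day 10. The groups did not overlap, and it fell by 2.26 ± 0.42 (SE, adjusted p = 0.0185). C5AR2, another receptor for C5a, was not called. Its differences were -0.93, 0.70 and 0.76 at days 30, 50 and 100 (SE 0.40, adjusted p = 0.334, 0.380 and 0.257).

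The other groups of the pathway showed no call. The 7 tested lectin pathway and C4 genes had median differences of -0.21, -0.04 and -0.78 at days 30, 50 and 100, and the 7 alternative and terminal components 0.12, 0.17 and 0.05. The 10 tested regulators had medians of -0.23, -0.14 and -0.14. CFP, or properdin, which stabilises the alternative convertase, differed by -1.97 at day 100 (adjusted p = 0.0508), and CFD, the protease that cleaves factor B, by -1.39 (adjusted p = 0.0633). In the other direction CD59, a surface inhibitor of the membrane attack complex, differed by 1.78 at day 100 (adjusted p = 0.0545), with a higher value in 4 of 4 cows. C8A, a chain of the terminal component C8, was well above background on 3 arrays at day 100 and on 0 at day 10. Its higher day 100 level was not called (adjusted p = 0.0746), and with day 10 at background no fold is given. The medians also cover wide single differences that missed the threshold, such as -4.64 for the lectin pathway protease MASP1 at day 100 (adjusted p = 0.0737) and 5.16 for CPN1, the catalytic subunit of carboxypeptidase N, at day 50 (adjusted p = 0.104). SERPING1, the C1 inhibitor, differed by -0.34 and CLU, or clusterin, by 0.10 (adjusted p = 0.761 and 0.743).

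The members' probes were read one by one. All 28 tested probes had negative differences from day 10 at each later time, and 2 of 10 C3 probes and 2 of 3 C5AR1 probes were too dim to test. In all 7 genes with more than 1 tested probe the brightest probe had the smallest difference at each of the 3 times, so the values above are the smallest that the array gives for these genes. At day 100 both C1QA probes (-3.16 and -2.34), all 3 C1QB probes (-2.88 to -1.76) and the single probes of C1QC, C5AR1 and C3AR1 were called. The C1QB probe at position 694 of its transcript was also called at day 30 (adjusted p = 0.0353) and in the F test (adjusted p = 0.0445), and its listed interval overlaps that of the brightest probe.

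No probe of C1R, C1S, C2 or CFB was called. Of the 8 tested C3 probes the one at position 783, well above background on 6 of 16 arrays, was called at day 50, by -4.57 (adjusted p = 0.0349). The C3 probe over the thioester site gave -3.29, -3.55 and -2.85 at days 30, 50 and 100 (adjusted p = 0.198, 0.106 and 0.122). Day 100 differences spanned -3.32 to -1.61 over the 8 C3 probes, -3.01 to -1.52 over the 4 CFB probes and -1.57 to -0.58 over the 3 C1S probes. The brightest probes lie at chr2:134672741-134672800 (C1QA), chr2:134649309-134649368 (C1QB), chr2:134664249-134664308 (C1QC), chr5:10365198-10365257 (C1R), chr5:10385371-10385430 (C1S), chr23:27213723-27213782 (C2), chr7:16354080-16354139 (C3), chr23:27207253-27207312 (CFB), chr18:54123327-54123386 (C5AR1) and chr5:108955993-108956052 (C3AR1) of Btau_3.1. The 3 C1q genes are thus listed close together on chromosome 2, C1R and C1S on chromosome 5 and C2 and CFB on chromosome 23. Positions within exons were not analysed here.

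**Figure D5:**
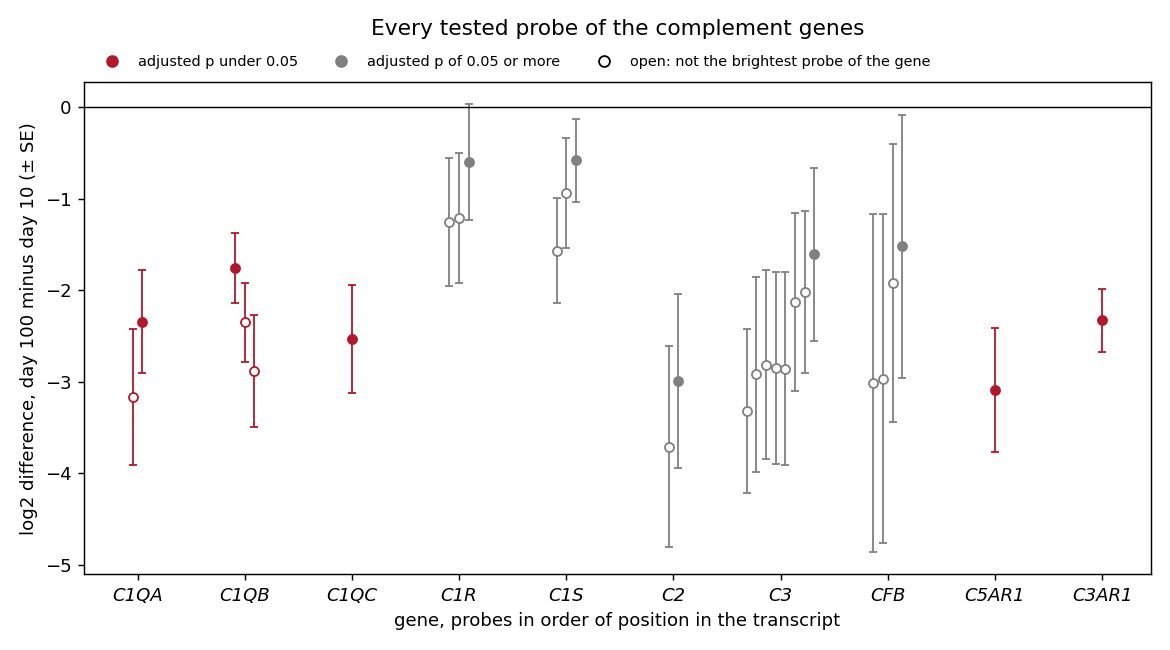
Log2 difference between days 100 and 10 (vertical axis, point with SE bar) for each of the 28 tested probes, by gene and in order of position in the transcript; red points have a limma adjusted p under 0.05 and filled points are the brightest probe of the gene. All points lie below 0, and the filled point is the least negative in each gene with several probes.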

How the data were processed

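Members and gene lists were chosen with earlier results of these data known. Endometrial RNA of 4 cows was measured on 16 Agilent arrays of 1 colour. Per the file headers, the deposited scanner intensity (processed signal) was background-subtracted and detrended by Agilent Feature Extraction 11.5.1.1 without scaling across arrays. The version in the submitters' processing notes is 10.5.1.1. The deposited files also hold mean and background intensity and, as other columns, flags for spots. The authors' deposited value table is on the log2 scale; set against the scanner values after the same percentile shift and centring by probe it gave r of 0.9998 to 1, with column medians from -0.16 to 0.22, which settles its scale, centring and direction, and it served as an alternative.

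From log2 processed signals the percentile 75 of the array was subtracted, nonuniform spots (4 to 125 per array) were left out and spots of 1 probe averaged. Probes well above background on at least 4 arrays were tested, which kept 33182 and left out 10471 of 43653. Members were matched by the gene name in the files; symbols of other genes were updated through the reference table of assembly ARS-UCD2.0, by accession for 20595 probes, gene ID for 1766 and synonym for 376. A gene is represented by its brightest tested probe. limma 3.58.1 in R 4.3.3 was fitted with time and cow, with 9 residual degrees of freedom, two-sided tests and Benjamini-Hochberg adjustment over all tested probes. Cows are the same animal at each time per the labels; deviations from the time means correlated with a median r of 0.12 within a cow (24 pairs) and -0.04 between cows (72 pairs). No 2 arrays correlated above 0.978, so none was counted as a repeat.

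Named are all members, and complement and marker genes called in a difference that also calls a member or called in the wider list. Also named are the 3 genes most correlated with each C1q chain, C3, C1S and C5AR1. MERTK, CFP, CFD, SERPING1, CLU, CD59, C8A, MASP1, CPN1 and C5AR2 were chosen after their values were seen. On simulated data for days 100 and 10 (32891 probes, 200 changed), the fit recovered 54% of changes of 2 and 90% of changes of 4 on the log2 scale, with 12 false calls. Alternatives were another background correction, normalization, filters, probe choice, the value table, array weights, tissue covariates, no cow term, the 8 arrays compared, and leaving out each cow or array. The result of 1 macrophage marker is not reported here by name.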

Additional observations from a re-analysis of the deposited data

Results flagged for a closer look

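In 3 of 40 groups of 4 cows 1 sample stood apart by more than the gap that Dixon's criterion allows, where chance alone gives about 1 in 20. C1QA at day 30 stood at 3.59 in cow 3, above the other cows by more than their own range. C1R at day 100 stood at 0.67 in cow 1, below the other cows. C3 at day 100 stood at 2.90 in cow 2, above the other cows, in the biopsy with the lowest epithelial and the highest smooth muscle level.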

How the results depend on the processing

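The labels pair samples by cow. With no replicate block, that is without the cow term, the called counts were 0 at day 30, 0 at day 50, 2 at day 100 and 0 in the F test, against 1, 1, 5 and 1 with it, and the C1QA, C1QB and C1QC calls at day 100 were lost (adjusted p = 0.0692, 0.0859 and 0.0951). At day 30 the count was 0 under normexp, quantile normalization, no filter on dim probes, the tissue covariates and the 8 arrays alone, and 2 with probes well above background on all 16 arrays or the probe with the lowest F test p. At day 50 it was 0 with the tissue covariates, 2 under normexp or the lowest F test p, 3 with the 8 arrays alone and 6 with array weights, whose estimation reported a convergence warning. At day 100 it was 0 with the 8 arrays alone. In the F test it was 2 under normexp or the lowest F test p and 4 with array weights. Leaving out 1 cow gave 0 at day 30, 0 at day 50, 0 to 5 at day 100 and 0 in the F test, and leaving out 1 array gave 0 to 1, 0 to 2, 1 to 6 and 0 to 3. Over all such alternatives the other counts stayed within 1.5 times.

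Of 897 differences of single genes under alternatives 6 turned positive. These were CFB at day 30 with the tissue covariates (0.12), C1R at day 100 without cow 1 or without its day 100 array (0.079), C1S at day 100 without cow 1, and CFB at day 100 without cow 4 or without its day 100 array (0.056). Leaving out 1 cow gave -1.23 to 0.31 for C1R, -0.96 to 0.070 for C1S and -3.16 to 0.18 for CFB at day 100. The cause was not tested. The contrast of the C1q chains with C1R and C1S stayed negative at each time under every alternative run. Normexp moved the median of all tested probes by 0.12 at day 30 and 0.32 at day 100, and all 10 members stayed negative under every scaling. C5AR1 gave no value with probes well above background on all 16 arrays. Signal over background limits C5AR1 and ITGAM, and 4 cows limit all comparisons.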
